A study of Mus musculus with 12 samples.

Results

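The data described here are the RNA-seq libraries of the inferior vena cava (IVC) of sham-operated mice, 6 of the 12 libraries of a study of arteriovenous fistulae (AVF). They were chosen by their labels alone, as every library of the sham group. Each library came from 1 wild-type C57BL/6J mouse of 10 weeks of age, with 3 male mice (samples #16, #17 and #18) and 3 female mice (samples #19, #22 and #23). The sham operation comprised laparotomy, exposure of the aorta and IVC and clamping below the renal vessels, with no puncture made, and the IVC was taken on postoperative day 7 after a saline flush of the circulation. The samples are therefore veins after surgery, not veins of unoperated mice, and each is a piece of whole tissue in which fewer cells of a type and less RNA per cell cannot be told apart. Whether fat, nerve or other tissue around the vein was trimmed away is not given in the sources used here. The libraries of the AVF group were not analysed here.

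The vena cava is a thin-walled vessel. An endothelial layer lines the lumen, a few layers of smooth muscle lie beneath it, and an outer coat of fibroblasts makes the collagen that carries the load. Sympathetic nerve fibres with their Schwann cells run in the outer coat, and fat surrounds the vessel. Fat cells of 2 kinds can be told apart by their genes: white adipocytes store lipid, while brown adipocytes burn it in mitochondria uncoupled by the protein that Ucp1 encodes. Heart muscle of the atria and of the ventricles uses different myosin light chains, and fast skeletal muscle fibres use myosin heavy chains of their own.

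The libraries held 18440252 to 22717423 counts. A level is given as normalized CPM (counts of a gene relative to all counts of its library, scaled between libraries by trimmed mean of M-values), or, where genes are compared with each other, in TPM, the same kind of measure taken per exon length. Exon length was the union of all annotated exons of a gene, which can be longer than the transcript present. Values per length, the order of genes by them and list shares per length are therefore approximate. A floor of 3 counts corresponded to between 0.132 and 0.165 normalized CPM, which covers counting error only. Ribosomal RNA genes took 1.2% to 5.17% of the counts, and the mitochondrial chromosome took 12.5% to 20.9%. Spearman's rho between libraries over 15141 tested genes lay between 0.96 and 0.991. Samples #19 and #23 stood apart from the rest by heart muscle and skeletal muscle transcripts respectively, described below. Counts of variable tested genes and of genes called between the sexes are also given without them.

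The 13 mitochondrial protein genes held 10.9% to 18.3% of all counts, led by mt-Co1, a subunit of cytochrome c oxidase, at 31900 ± 7010 normalized CPM (SD, n = 6). Sample #16 was highest for this group and sample #22 was lowest. A further 2.78% to 4.96% of the counts were assigned to 5 pseudogenes in a stretch of chromosome 1 (Atp6-ps, Gm28437, Gm29216, Gm28438 and Gm28661, GRCm39 24651856 to 24655278) that are near-identical copies of mitochondrial genes. Reads can be split between those copies and their mitochondrial originals, so the level of each is uncertain.

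Per exon length, the nuclear protein-coding genes with the highest levels were those of fat, blood and connective tissue. Scd1, the desaturase that makes monounsaturated fatty acids, stood at 4930 ± 3170 TPM (SD, n = 6), and its range over the libraries was 2060 to 9740 TPM. The haemoglobin genes Hbb-bs, Hba-a1 and Hba-a2 had means of 4380, 3740 and 3660 TPM, and Car3, a carbonic anhydrase abundant in fat, had a mean of 4160 TPM. The ranges of Scd1, Hbb-bs, Car3 and the alpha globin genes over the 6 libraries overlapped, so no order among them is drawn. The 2 alpha globin genes are near-identical and share reads, so only their sum is firm. An entry annotated as a copy of Ptp4a1, with an exon length of 108 bases, had a larger value per length (13400 ± 4780 TPM) and was left out of this order because of its short length.

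Next on the scale per length came Sparc, a matrix-binding protein of connective tissue, at 2670 ± 953 TPM, the elongation factor gene Eef1a1 at 2420 ± 390 TPM, and Fabp4, the fatty acid carrier of adipocytes, at 2080 ± 651 TPM. The fibrillar collagen gene Col3a1 followed at 1870 ± 843 TPM, and Cfd, which encodes the adipocyte protease adipsin, at 1820 ± 544 TPM. The smooth muscle genes Acta2 (smooth muscle actin) and Tagln (transgelin) were among the same 25 genes, at 1130 ± 405 and 1020 ± 303 TPM. Among these genes were thus genes typical of fat, of the vein wall and, in the flushed vein, of red blood cells.

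**Figure D1:**
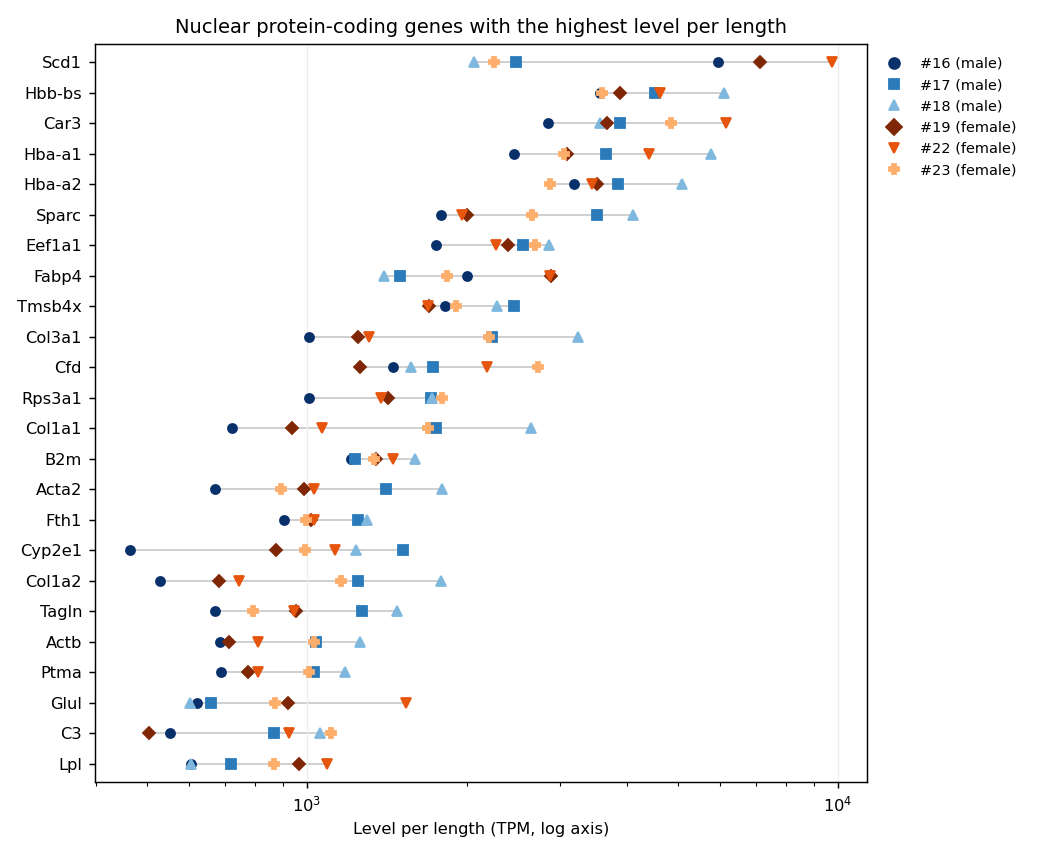
Level per exon length (TPM, log axis) of the nuclear protein-coding genes with the highest means, one row for each gene and one point for each of the 6 sham libraries, with a grey line from the lowest to the highest. Scd1 spans 2060 to 9740 TPM, while Eef1a1 stays between 1750 and 2860 TPM.

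By the number of counts drawn, which also depends on transcript length, Scd1 (chromosome 19, GRCm39 44382894 to 44399154) came first at 14100 ± 9630 normalized CPM. Its values were 20400, 6370 and 4570 normalized CPM in the male samples #16, #17 and #18, and 22000, 25700 and 5400 normalized CPM in the female samples #19, #22 and #23. Samples #16, #19 and #22 were thus high, samples #17, #18 and #23 were low, and each sex had libraries of both kinds. The 25 nuclear genes with the most counts together held 6.9% to 8.76% of each library. Among them, Tpt1, Eef1a1 and Nedd4 (a ubiquitin ligase) varied least, by 1.22-fold, 1.24-fold and 1.24-fold from the lowest to the highest library, and the lipogenic enzyme gene Fasn varied most, by 9.67-fold.

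Of the wall, the smooth muscle list of 14 genes summed to between 4350 and 7510 normalized CPM and took 0.432% to 0.807% of the counts. Acta2 had a lowest value of 962, a median of 1290 and a highest value of 1780 normalized CPM, and Myh11, the smooth muscle myosin heavy chain, stood at 1340 ± 326 normalized CPM. Sample #18 was highest for 7 of the 14 genes and sample #23 was lowest for 11. Against the median of the other 5 libraries, sample #23 had a median ratio of 0.705 over the list and sample #18 had one of 1.36. Des, which encodes the intermediate filament desmin of all muscle types, had another order, with its highest value of 133 normalized CPM in sample #19 and 72.1 normalized CPM in sample #23, against 37.2 to 52.3 normalized CPM in the other samples.

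Endothelial transcripts were present in every library. Pecam1, an adhesion molecule of endothelial junctions, had values of 937, 733 and 680 normalized CPM in the male samples and 1150, 625 and 657 normalized CPM in the female samples. Vwf, which encodes von Willebrand factor, ranged from 554 to 938 normalized CPM, and Cdh5, the junctional cadherin of endothelium, from 222 to 327 normalized CPM. The list of 12 genes summed to 2080 to 3470 normalized CPM, with 10 of the 12 genes highest in sample #19.

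Of the endothelial subtype lists, the summed venous list was 3.2 to 4.16 times the summed arterial list within each library per exon length (TPM), and 4.94 to 6.89 times in normalized CPM. Nr2f2, the nuclear receptor (COUP-TFII) that sets venous fate, ranged from 230 to 354 normalized CPM, and Ephb4, the receptor of venous endothelium, from 88.3 to 119 normalized CPM. Of the arterial genes, Dll4 lay between 4.8 and 9.21 normalized CPM and Gja5 between 7.83 and 22.5 normalized CPM, while Efnb2, the ligand of Ephb4, lay between 44.1 and 69.9 normalized CPM. Per exon length, Nr2f2 and Ephb4 averaged 83.4 and 52.5 TPM, and Efnb2 and Dll4 averaged 21.9 and 5.13 TPM. Nr2f2 and Nrp2 are also expressed outside the endothelium, and Nr2f2 alone held 43.4% to 53.5% of the venous sum in normalized CPM. The ratio of the sums therefore does not describe endothelial cells alone. Lymphatic endothelium was present as well, with Prox1 at 26.6 to 49.5, Lyve1 at 68.1 to 132 and the chemokine gene Ccl21a at 60.8 to 140 normalized CPM; Ccl21a has near-identical copies in the mouse genome, so its level is uncertain.

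The fibroblast list of 11 genes held 1.31% to 3.02% of the counts, against 0.749% to 1.38% for the vessel matrix list and 0.432% to 0.807% for the smooth muscle list. Per exon length the 3 lists lay closer together, with mean shares of 0.595%, 0.468% and 0.42% of all TPM. Among the fibroblast genes were Col3a1 at 4920 to 10200 and Col1a1 at 2270 to 5330 normalized CPM. For Col3a1, the male samples #16, #17 and #18 had 4970, 8170 and 10200 normalized CPM, and the female samples #19, #22 and #23 had 5510, 4920 and 7530 normalized CPM. Samples #17 and #18 were highest, and sample #16 was among the lowest. The basement membrane collagen gene Col4a1 moved much less, between 415 and 571 normalized CPM, and the elastin gene Eln lay between 214 and 394 normalized CPM. On the log2(normalized CPM + 1) scale over the 6 libraries, an SD of 1 was reached by 163 of 15141 tested genes (1.08%). None of the 14 smooth muscle, 12 endothelial, 11 fibroblast or 15 vessel matrix genes reached that size. The median SDs of these lists were 0.35, 0.26, 0.33 and 0.31, each above the 0.23 over all tested genes.

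**Figure D2:**
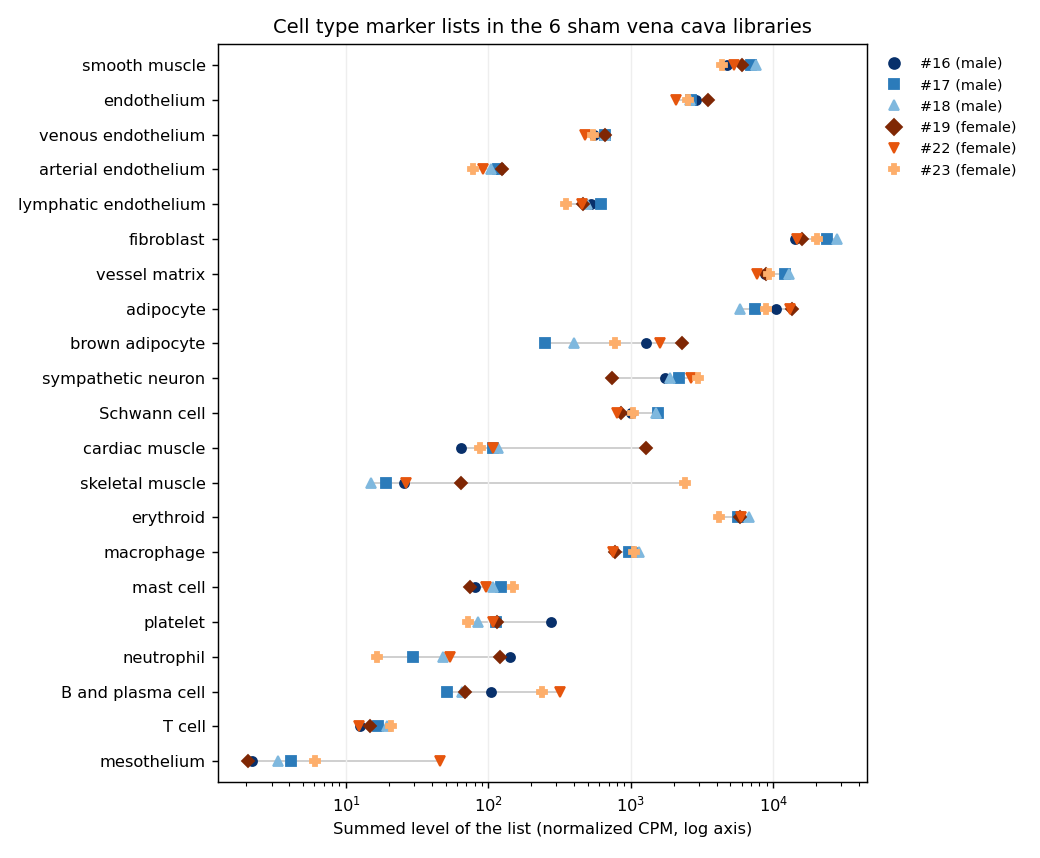
Summed level of cell type marker lists (normalized CPM, log axis), one row for each list and one point for each of the 6 sham libraries. The smooth muscle, endothelium, fibroblast and vessel matrix lists span at most 1.96-fold, while the brown adipocyte, cardiac muscle, skeletal muscle, neutrophil, B and plasma cell and mesothelium lists spread widely.

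Adipocyte transcripts were abundant and varied between the libraries. The general adipocyte list of 11 genes held 0.63% to 1.28% of the counts. Adipoq, which encodes the adipocyte hormone adiponectin, had values of 413, 334 and 281 normalized CPM in the male samples and 488, 563 and 406 normalized CPM in the female samples. Fabp4 ranged from 2130 to 6130 normalized CPM, and Lpl, the lipase that releases fatty acids from blood lipids, from 2270 to 5090 normalized CPM. None of the 11 genes reached an SD of 1, and their median SD was 0.53 against 0.23 over all tested genes. Lep, which encodes the white fat hormone leptin, had the largest spread of the list, with 52.1 normalized CPM in sample #16 and 9.26 to 27.1 normalized CPM in the others.

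Brown adipocyte genes varied far more than the general adipocyte genes. Ucp1 had values of 494, 23.7 and 81.1 normalized CPM in the male samples #16, #17 and #18, and 1150, 581 and 257 normalized CPM in the female samples #19, #22 and #23. Its SD on the log2 scale was 2.05, and the sexes overlapped. Dio2, the deiodinase that activates thyroid hormone in brown fat, followed the same split, with 13.8 and 17.1 normalized CPM in samples #17 and #18 against 121 to 378 normalized CPM in the other 4. Otop1 had 5.12 and 11.6 normalized CPM in samples #17 and #18 and 26.9 to 70.5 normalized CPM in the others. In all, 6 of the 11 brown adipocyte genes reached an SD of 1 (Ucp1, Dio2, Ppargc1a, Elovl3, Cox7a1 and Otop1), beside 1.08% of all tested genes.

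Not every gene of the brown list moved in this way. Prdm16, a transcription factor of brown and beige adipocytes that other cells also express, stayed between 18.1 and 21.3 normalized CPM, and the potassium channel gene Kcnk3 stayed between 85.3 and 172 normalized CPM. The summed brown list was 9.15-fold higher in sample #19 than in sample #17, while the summed general adipocyte list spanned 2.31-fold. Sample #19 also held heart muscle transcripts, described below, and their part in its brown sum was not tested. Set over the general list within each library, the brown sum was 0.123, 0.0336 and 0.0685 of it in the male samples and 0.168, 0.122 and 0.0866 in the female samples. These 2 sums were positively related over the 6 libraries (log2 scale, Pearson's r = 0.91, exact permutation p = 0.0167; Spearman's rho = 0.94, exact permutation p = 0.0167; two-sided), but at an adjusted p of 0.05 over 3 relations the first did not fall below the threshold of 0.05. Without samples #17 and #18, the farthest from the median, r was 0.96 over 4 libraries. On the scale per length, r was 0.68 (exact permutation p = 0.14, adjusted p = 0.222).

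The brown list and the smooth muscle list, by the same test, showed no detectable relation (r = -0.54, exact permutation p = 0.263, adjusted p = 0.394; rho = -0.37, exact permutation p = 0.497). Without samples #17 and #18 the sign turned (r = 0.97 over 4 libraries), so that the negative sign rests on those samples.

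Lipogenic enzymes also varied widely, in a different order of libraries, and their sum spanned 5.61-fold. Fasn, the fatty acid synthase, had 2480, 364 and 398 normalized CPM in the male samples and 1750, 3530 and 1180 normalized CPM in the female samples. Acly, which supplies its acetyl-CoA, had 2270, 298 and 276 normalized CPM in the male samples and 685, 1880 and 661 normalized CPM in the female samples. Sample #22 was highest for 7 of the 11 lipogenesis genes and sample #16 for the other 4, whereas sample #19 was highest for 6 of the 11 brown genes. Samples #17 and #18 were low for both lists. In the lipogenesis list 7 of 11 genes reached an SD of 1 (Fasn, Acaca, Acly, Scd1, Elovl6, Me1 and Thrsp). Srebf1, the transcription factor that drives many of these enzymes, ranged only from 31 to 52.5 normalized CPM, and Scd2, a desaturase also made outside fat, from 276 to 686 normalized CPM.

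Nuclear genes of oxidative phosphorylation followed the same split of libraries with smaller differences. Of 20 genes, 18 were lowest in sample #17 and 2 in sample #18, while 12 were highest in sample #19 and 8 in sample #16. Atp5f1b, the beta subunit of ATP synthase, had 1030, 449 and 562 normalized CPM in the male samples and 1090, 1040 and 827 normalized CPM in the female samples. None of the 20 reached an SD of 1, and their median SD was 0.54 against 0.23 over all tested genes. Pdk4, a kinase that restrains glucose oxidation, had its highest values of 1100 and 653 normalized CPM in samples #19 and #16, and lay between 218 and 397 normalized CPM in the others. It belongs to the list of 8 genes that rise with glucocorticoids, which summed to 1200, 667 and 593 normalized CPM in the male samples and 1810, 1050 and 590 normalized CPM in the female samples, with no member at an SD of 1. The general adipocyte sum was 10400, 7430 and 5870 normalized CPM in the male samples and 13600, 13100 and 8880 normalized CPM in the female samples. Samples #17 and #18 were lowest for this sum and for that of oxidative phosphorylation, while sample #23 was lowest for the glucocorticoid sum. The part of fat in these differences, and that of heart muscle transcripts in sample #19, was not tested.

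**Figure D3:**
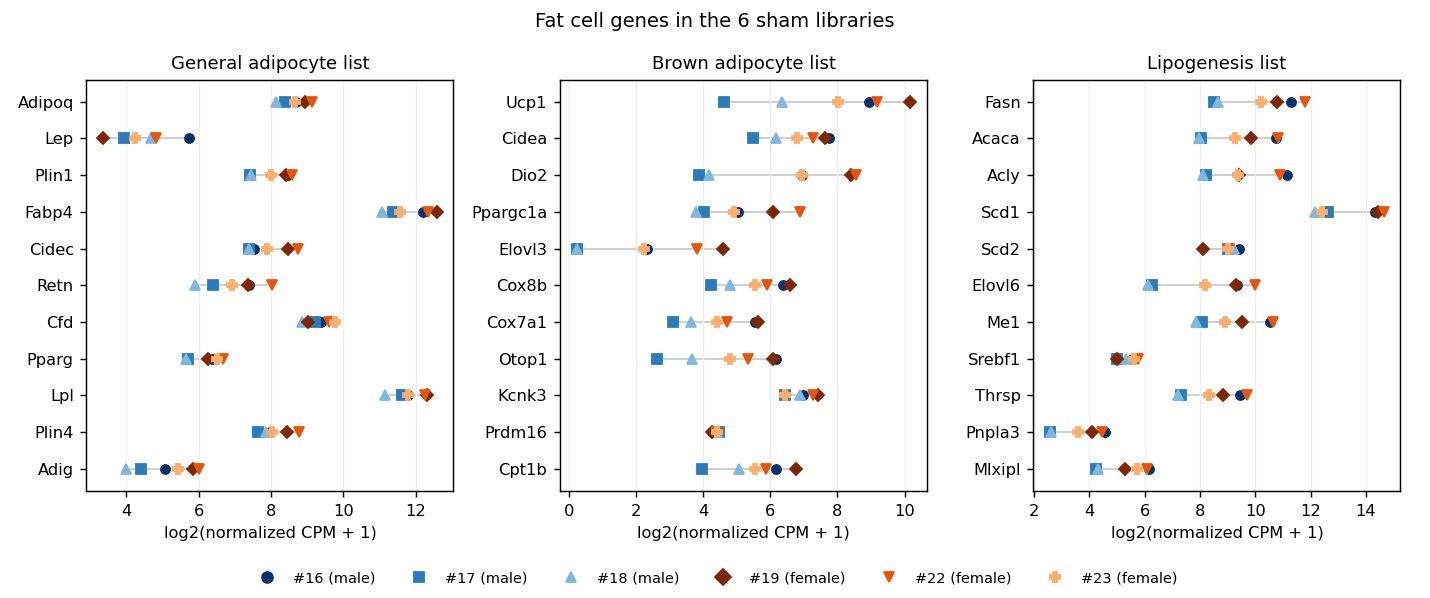
Log2(normalized CPM + 1) of each gene of the general adipocyte, brown adipocyte and lipogenesis lists, one point for each of the 6 sham libraries. Samples #17 and #18 lie at the low end for most brown and lipogenic genes, with Ucp1 at 23.7 and 81.1 normalized CPM, while Prdm16 stays between 18.1 and 21.3 normalized CPM in every library.

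Sympathetic neuron genes were expressed in every library, and sample #19 held the least of all 16. Th, tyrosine hydroxylase, which makes the precursor of noradrenaline, had 51.4, 55.5 and 45.4 normalized CPM in the male samples and 18.1, 72.9 and 80.4 normalized CPM in the female samples. Dbh, which makes noradrenaline itself, had 148, 171 and 154 normalized CPM in the male samples and 60, 234 and 283 normalized CPM in the female samples. The noradrenaline transporter gene Slc6a2 had 462, 602 and 448 normalized CPM in the male samples and 202, 847 and 930 normalized CPM in the female samples. Against the median of the other 5 libraries, the 16 genes in sample #19 had ratios between 0.288 (Phox2a) and 0.44 (Hand2), so the whole list was lower together.

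The list included genes of the cell body as well as of the fibre. Hand2, a transcription factor of sympathetic neurons, lay at 20.2 normalized CPM in sample #19 and at 33.2 to 58.3 normalized CPM in the others. The adrenal list was near 0: Pnmt, which makes adrenaline, had at most 0.0551 normalized CPM, and the summed adrenal list did not exceed 5.56 normalized CPM in any library. Of the 11489 genes with a mean of at least 5 normalized CPM, 218 (1.9%) were at least 2-fold lower in sample #19 than in every other library, with at least 1 normalized CPM in each of those, and 12 of the 16 sympathetic genes were among them. By that measure 4 genes were lower in sample #16 (0.0348%), 15 in sample #17 (0.131%), 5 in sample #18 (0.0435%), 9 in sample #22 (0.0783%) and 10 in sample #23 (0.087%). The 15 of sample #17 held the brown adipocyte genes Ucp1, Otop1 and Cpt1b, and the 10 of sample #23 held the neutrophil genes S100a8, S100a9 and Cxcr2.

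Schwann cell genes had another order, and 1 of the 10 was lowest in sample #19. Mbp, which encodes myelin basic protein, had 131, 203 and 172 normalized CPM in the male samples and 114, 99.1 and 132 normalized CPM in the female samples, and Cdh19, a cadherin of Schwann cells, had 112, 152 and 164 and then 121, 113 and 108 normalized CPM. Of the 10 genes, 7 were highest in sample #17 and 7 were lowest in sample #22, a sample in which the sympathetic genes were high. Summed, the sympathetic list was 0.866 of the Schwann cell list in sample #19 and 3.29 times it in sample #22. Over the 6 libraries the 2 sums showed no detectable relation (r = 0.22, exact permutation p = 0.719, adjusted p = 0.719; rho = 0.14, exact permutation p = 0.803), and without samples #19 and #23 r was -0.43 over 4 libraries.

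Heart muscle transcripts were high in sample #19. Myh6, the alpha myosin heavy chain of heart muscle, stood at 431 normalized CPM in sample #19, from 7816 counts, and at 3 counts or fewer in each of the other 5 libraries. Myl7, the light chain of atrial muscle, stood at 113 normalized CPM from 2060 counts, with at most 1 count elsewhere. Nppa, which encodes the atrial natriuretic peptide, stood at 45.3 normalized CPM from 823 counts and at 0 in the other 5. All 9 genes of the list that reached 1 normalized CPM anywhere were highest in sample #19.

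The heart muscle genes of sample #19 included those typical of the atria (Myl7, Nppa, Myl4 and Sln), at 113, 45.3, 143 and 11.5 normalized CPM. Myl2, the light chain of ventricular muscle, had 0.0551 normalized CPM there, and Myh7, the beta myosin heavy chain, had 0.331 normalized CPM. The cardiac transcription factor gene Nkx2-5 had 0.441 normalized CPM in sample #19 and 0 in the others. Actc1, the cardiac actin that smooth muscle tissue can also express, had a value of 170 normalized CPM in sample #19 and values of 43.3 to 95.5 normalized CPM in the other samples, and Ryr2, a calcium release channel, at 93.2 against 12.7 to 20 normalized CPM.

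Skeletal muscle transcripts were high in sample #23. Myh4, the myosin heavy chain of the fastest muscle fibres, stood at 628 normalized CPM in sample #23, from 12433 counts, and at 2 counts or fewer in the others. Acta1, skeletal muscle actin, stood at 257 normalized CPM there and between 0.394 and 0.747 normalized CPM in the others. Atp2a1, the calcium pump of fast fibres, stood at 391 normalized CPM in sample #23, at 9.31 normalized CPM in sample #19 and at 0.148 or less elsewhere. Pvalb, the calcium buffer parvalbumin of fast fibres, stood at 106 normalized CPM and was at 0 in 4 other libraries, with 0.197 normalized CPM in sample #17.

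Of the 12 skeletal muscle genes, 11 were highest in sample #23. The exception was Myh2, the myosin heavy chain of another fast fibre type, which lay between 0.386 and 1.67 normalized CPM in every library and had 0.606 normalized CPM in sample #23. Myl1, a light chain of fast fibres, had more signal than the other members outside sample #23, at 9.8 to 44 normalized CPM outside sample #23 and 175 normalized CPM in it. Ttn, which encodes the giant protein titin of heart and skeletal muscle alike, was high in both samples, at 172 normalized CPM in sample #19 and 246 normalized CPM in sample #23, and at 0.202 or less in the other 4.

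**Figure D4:**
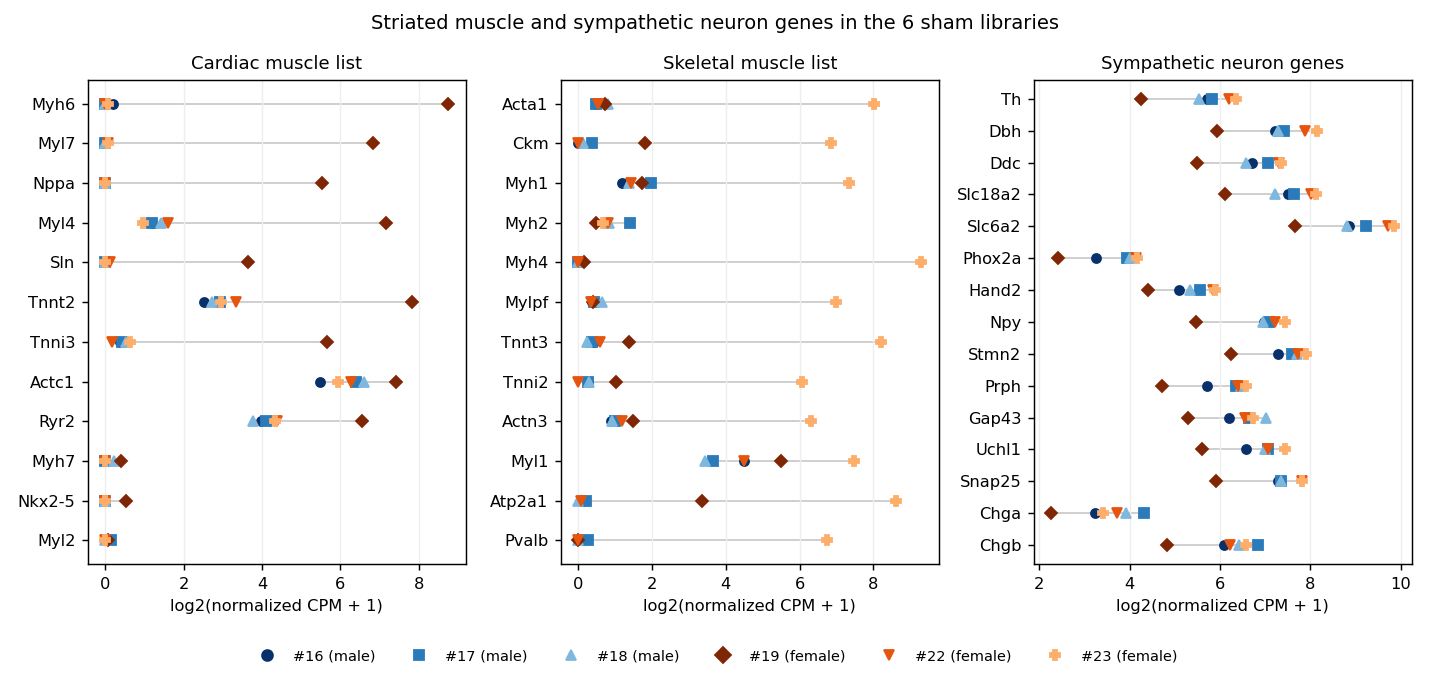
Log2(normalized CPM + 1) of genes of the cardiac muscle, skeletal muscle and sympathetic neuron lists, one point for each of the 6 sham libraries. Sample #19 is alone at the high end for Myh6 (431 normalized CPM) and at the low end for every sympathetic gene plotted, and sample #23 is alone at the high end for 11 of the 12 skeletal muscle genes.

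Actin and myosin genes of smooth, heart and skeletal muscle are known targets of serum response factor, which binds the CArG box. Promoters of list members from each muscle are shown because heart and skeletal muscle genes differed by library. The CArG box was searched as CC, then 6 bases that are each A or T, then GG, a motif that reads the same in form on both strands, in RefSeq promoters of 300 bases (250 before and 50 after the start, build GRCm38.p6). Such a box was found in 1.63% of all 32851 promoters, and for 1.81% of 27025 genes with at least 1 promoter. It was found for Myl9 among 10 smooth muscle genes with a promoter, for Myl7 and Actc1 among 11 cardiac genes, for Acta1 and Myh4 among 9 skeletal muscle genes, and for none of 6 fibroblast, 9 adipocyte or 11 sympathetic neuron genes. The strand is that of the gene, and capitals mark the box.
Myl9 (chr2:156775214-156775513, + strand): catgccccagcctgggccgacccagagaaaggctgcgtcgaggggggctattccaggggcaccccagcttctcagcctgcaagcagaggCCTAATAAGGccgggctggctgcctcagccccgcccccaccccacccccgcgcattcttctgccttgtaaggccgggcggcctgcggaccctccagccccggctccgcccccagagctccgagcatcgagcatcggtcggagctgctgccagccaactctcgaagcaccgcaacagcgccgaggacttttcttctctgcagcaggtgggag
Myl7 (chr11:5898733-5899032, - strand): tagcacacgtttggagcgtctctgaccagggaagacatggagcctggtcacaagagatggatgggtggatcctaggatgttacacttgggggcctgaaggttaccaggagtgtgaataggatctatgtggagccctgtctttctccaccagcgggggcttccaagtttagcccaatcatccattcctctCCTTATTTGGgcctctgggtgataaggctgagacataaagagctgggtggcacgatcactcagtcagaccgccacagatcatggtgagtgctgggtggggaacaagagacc
Actc1 (chr2:114052826-114053125, - strand): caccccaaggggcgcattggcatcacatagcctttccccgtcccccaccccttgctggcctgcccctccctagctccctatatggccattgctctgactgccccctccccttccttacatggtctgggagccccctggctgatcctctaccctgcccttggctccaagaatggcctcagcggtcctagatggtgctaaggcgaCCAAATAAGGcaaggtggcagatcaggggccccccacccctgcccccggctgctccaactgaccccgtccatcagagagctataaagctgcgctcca
Acta1 (chr8:123894726-123895025, - strand): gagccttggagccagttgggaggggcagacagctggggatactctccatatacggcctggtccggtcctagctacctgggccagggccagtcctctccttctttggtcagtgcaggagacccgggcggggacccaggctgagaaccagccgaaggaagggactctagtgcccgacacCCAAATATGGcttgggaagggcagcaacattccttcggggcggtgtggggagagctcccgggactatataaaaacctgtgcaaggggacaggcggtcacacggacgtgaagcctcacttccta
Myh4 (chr11:67237562-67237861, + strand): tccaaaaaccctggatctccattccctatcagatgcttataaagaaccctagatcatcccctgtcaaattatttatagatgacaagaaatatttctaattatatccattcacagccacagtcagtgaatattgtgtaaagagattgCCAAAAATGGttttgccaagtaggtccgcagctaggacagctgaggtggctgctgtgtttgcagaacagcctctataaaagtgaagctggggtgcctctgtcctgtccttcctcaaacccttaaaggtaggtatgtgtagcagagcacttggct

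The box ended 152, 52, 38, 64 and 95 bases before the start that RefSeq annotates for Myl9, Myl7, Actc1, Acta1 and Myh4. Of these genes, Myl9 lay between 424 and 684 normalized CPM in every library, while Actc1 had 170 normalized CPM in sample #19 and 43.3 to 95.5 normalized CPM in the others, Myl7 was high in sample #19, and Acta1 and Myh4 in sample #23. Only exact matches were counted, so a gene with no match can still hold a box with a mismatch or one outside the window. A match is a description of the letters in this window, and binding was not measured.

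Blood cell transcripts differed by kind. The erythroid list of 7 genes held 0.449% to 0.731% of the counts, with Hbb-bs at 1960 to 3070 normalized CPM, and its sum varied by 1.63-fold. Platelet genes were highest in sample #16 for all 6 genes. Ppbp, a platelet chemokine, had 122 normalized CPM in sample #16 and 14.2 to 37.6 normalized CPM in the others, and Pf4, platelet factor 4, had 44 against 20.3 to 29.6 normalized CPM. Tubb1, Clec1b and Alox12, platelet genes outside the list, were also highest in sample #16, at 19.7, 25.3 and 31 normalized CPM against at most 4.67, 8.1 and 10.1 normalized CPM elsewhere.

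Of the 6 neutrophil genes, 5 were highest in sample #16 and 5 were lowest in sample #23. S100a8, a calcium-binding protein of neutrophils, had 41.2, 8.28 and 11.4 normalized CPM in the male samples and 37.1, 14.5 and 2.78 normalized CPM in the female samples. Cxcr2, a chemokine receptor of neutrophils, had 18.1, 2.32 and 3.6 normalized CPM in the male samples and 14, 5.83 and 0.758 normalized CPM in the female samples. Il1b, an inflammatory cytokine, ran from 0.505 normalized CPM in sample #23 to 14.1 normalized CPM in sample #16. The erythroid sum had another order, with its highest value of 6810 normalized CPM in sample #18 and its lowest of 4190 normalized CPM in sample #23.

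Macrophage genes were present in every library, with a median SD of 0.34 against 0.23 over all tested genes. Lyz2 (lysozyme) ranged from 257 to 491 normalized CPM, Mrc1 (the mannose receptor of resident macrophages) from 141 to 290 normalized CPM, and Csf1r (the receptor for their growth factor) from 60.7 to 111 normalized CPM. The class II antigen presentation genes H2-Aa and Cd74 ranged from 125 to 168 and from 231 to 324 normalized CPM. Mast cell genes were low but present, with Cpa3 at 21.2 to 38.3 and Mcpt4 at 20.1 to 36.5 normalized CPM. T cell genes were low: Cd3e lay between 0.628 and 1.32 normalized CPM, and the list of 9 genes summed to 12.3 to 20.7 normalized CPM.

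Plasma cell transcripts were uneven between libraries. Igkc, the constant part of the kappa light chain, had 14.5, 3.94 and 4.22 normalized CPM in the male samples and 13.4, 90.5 and 65.1 normalized CPM in the female samples. Jchain, the joining chain of secreted IgM and IgA, had 7.95, 1.08 and 2.11 normalized CPM in the male samples and 6.56, 42.1 and 31.7 normalized CPM in the female samples. The B cell gene Ms4a1 did not follow and stayed between 0.658 and 2.36 normalized CPM. For Igkc and Jchain, samples #22 and #23 were high, and sample #19 lay with sample #16.

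Organs near the vein left little trace. The kidney list of 7 genes summed to at most 2.65 normalized CPM and the pancreas list of 5 genes to at most 0.331 normalized CPM. The hepatocyte list of 10 genes summed to at most 12.3 normalized CPM, with 38.6% to 68.7% of it from Mup3, a member of a family of near-identical genes whose level is uncertain. The mesothelium list of 7 genes, which marks the lining of the abdominal cavity, summed to 45.6 normalized CPM in sample #22 and to at most 6.06 normalized CPM elsewhere. In sample #22 Upk3b and Muc16 stood at 11.1 and 10.7 normalized CPM, and they did not exceed 0.707 and 0.303 normalized CPM in the other libraries.

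Ranked by SD over the 6 libraries, among the 11489 genes with a mean of at least 5 normalized CPM, the 25 most variable genes were genes that separate the sexes and muscle genes. Xist and the Y-linked genes Ddx3y, Eif2s3y, Uty and Kdm5d separated the sexes, together with Fam177a2. The others were muscle genes, among them Ttn, Myh4, Myh6, Atp2a1, Tnnt3, Acta1, Xirp2, Myl7, Pvalb and Ckm, each highest in sample #19 or sample #23. The rank is a description, with Nppa at rank 25 with an SD of 2.26 and Neb, a giant protein of skeletal muscle, just outside it with an SD of 2.2. An SD of at least 1 was found for 126 of the 11489 genes (1.1%). Of those, 13 were high in 1 library only and so did not pass the filter of more than 1 CPM in at least 2 libraries. Over the tested genes the count was 163 with all libraries and 147 without samples #19 and #23.

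Counted by library, 25 genes were at least 2-fold higher in sample #19 than in every other library (0.218% of 11489 genes), 36 in sample #23 (0.313%) and 23 in sample #16 (0.2%). In samples #17, #18 and #22 the counts were 1 (0.0087%), 2 (0.0174%) and 3 (0.0261%). Cish, a feedback inhibitor of cytokine signalling, was the gene in sample #17, at 18.1 normalized CPM against at most 7.23 normalized CPM. Gm45837 and Adnp were those in sample #18, and Nr4a3, Mc5r and Slc39a8 those in sample #22. Nr4a3, an immediate-early nuclear receptor, stood at 73.7 normalized CPM in sample #22 and at 9.85 to 32.9 normalized CPM in the others.

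Between female and male sham veins, 10 of 15141 tested genes (0.066%) were called by edgeR's quasi-likelihood test with thresholds of 0.05 for the Benjamini-Hochberg adjusted p and 1.5 for the fold change. Of these, 4 were higher in female mice (0.0264% of tested genes) and 6 in male mice (0.0396%), and 1715 genes had an unadjusted p under 0.05. The count depended on the tool and the filter, with 247 genes by DESeq2 (120 higher in female and 127 in male mice) and 32 by edgeR with no filter on low counts. Xist, the RNA that silences an X chromosome in female cells, stood at 552 to 630 normalized CPM in the female samples and at 0.0506 to 0.132 normalized CPM in the male samples (adjusted p = 3.07e-06). Of the Y-linked genes, Eif2s3y, Uty and Kdm5d were at 0 in all 3 female libraries and had means of 55.3, 30.8 and 28.4 normalized CPM in the male libraries, at least 335-fold, 187-fold and 172-fold higher than a floor of 3 counts per library (adjusted p = 0.000575 for each). Ddx3y stood at 114 to 142 normalized CPM in the male samples and at 0.0551 or less in the female samples (adjusted p = 2.84e-05). Every library matched the sex on its label.

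The autosomal genes called were Ano4, Spon1 and Fam177a, higher in female mice, and Tdo2 and Tent5c, higher in male mice. Ano4 (chromosome 10, GRCm39 88784789 to 89181063), a member of the anoctamin family of membrane proteins, had 0.253, 0.246 and 0.22 normalized CPM in the male samples and 7.71, 6.87 and 7.32 normalized CPM in the female samples (log2 fold change 4.9 ± 0.25 SE, adjusted p = 0.000575). Spon1 (chromosome 7, 113364999 to 113642610), a secreted matrix protein, had 27.1, 25.9 and 26.3 and then 89.8, 79.5 and 123 normalized CPM (1.88 ± 0.17, adjusted p = 0.0246). Tdo2 (chromosome 3, 81864248 to 81883509), the enzyme that begins the breakdown of tryptophan, had 8, 7.98 and 6.29 normalized CPM in the male samples and 0.496, 0.135 and 0.505 normalized CPM in the female samples (-4.3 ± 0.43, adjusted p = 0.0319). Tent5c (chromosome 3, 100358944 to 100396702), a poly(A) polymerase, had 101, 110 and 110 normalized CPM in the male samples and 54.2, 55.3 and 50.1 normalized CPM in the female samples (-1.0 ± 0.09, adjusted p = 0.0253). For all 4 genes the sexes did not overlap. Ano4, Xist and the Y-linked genes were called whichever single library was left out. Spon1 lost its call without sample #16, #17 or #18, Tdo2 without any one of samples #16, #17, #18, #19 and #23, and Tent5c without any one of samples #17, #18, #19, #22 and #23.

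Fam177a and its neighbour Fam177a2 on chromosome 12 are near-identical genes that share reads. Fam177a was called as higher in female mice (65.6 to 82.3 against 27 to 33 normalized CPM, adjusted p = 0.0288), while Fam177a2 had 72.4, 61.6 and 53.1 normalized CPM in the male samples and 8.43, 0 and 0 normalized CPM in the female samples. The opposite directions of the pair, and the reads they share, leave the level of each uncertain, and Fam177a lost its call without any one of samples #16, #17, #18, #22 and #23. Without samples #19 and #23, 6 genes were called, but 1 female library then remains, the male libraries alone supply the spread, and Xist and Ano4 cannot pass the filter that asks for 2 libraries, so this count is no check on the calls. Without either sample #17 or sample #18 the count was also 6.

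The X-linked genes known to escape silencing were higher in every female library than in every male library in 6 of 6 cases, an order that 7.58% of all tested genes showed. Apart from Xist none of them was called, with Kdm5c nearest (37.9, 37 and 45.6 against 69.2, 70.2 and 66.9 normalized CPM, log2 fold change 0.78 ± 0.11, adjusted p = 0.124). Eif2s3x, the X-linked partner of Eif2s3y, had 162 to 190 normalized CPM in male and 266 to 283 normalized CPM in female samples (0.66 ± 0.1, adjusted p = 0.157).

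Apart from the lists of the sex chromosomes, none of the 284 tested list genes passed edgeR's test between the sexes with the filter on low counts. DESeq2 called 11 of them, among them Adig, Cidec and Ppargc1a, higher in female mice, and Slc4a1 and the immediate-early genes Egr3, Fosb, Ier2, Jun, Junb and Zfp36, higher in male mice. In the fat lists, Cidec, a lipid droplet protein, had 183, 167 and 167 normalized CPM in the male samples and 353, 428 and 234 normalized CPM in the female samples (0.98 ± 0.22, adjusted p = 0.282), and Adig had 15 to 32.5 against 42.1 to 63.2 normalized CPM (1.25 ± 0.29, adjusted p = 0.294). In the brown list Ucp1 differed by 1.73 ± 1.05 on the log2 scale (adjusted p = 0.574), within the spread between libraries of the same sex. Among the erythroid genes, Slc4a1, the anion exchanger of red cells, had 16.8, 9.75 and 11.8 normalized CPM in the male samples and 5.01, 4.98 and 4.95 normalized CPM in the female samples (-1.36 ± 0.22, adjusted p = 0.185). The globin gene Hbb-bs did not show this split (adjusted p = 0.729).

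Immediate-early genes, which cells switch on within minutes of a stimulus, were the list with the most members whose sexes did not overlap. In 9 of 14 (Fos, Fosb, Jun, Junb, Egr1, Egr3, Ier2, Dusp1 and Zfp36) every male library lay above every female library, against 9.5% of all tested genes. None was called by edgeR with the filter on low counts and all 6 libraries. Without that filter edgeR called Zfp36. Fos, a subunit of the transcription factor AP-1, had 88, 82.2 and 60 normalized CPM in the male samples and 28.6, 4.58 and 34.1 normalized CPM in the female samples (log2 fold change -1.78 ± 0.62, adjusted p = 0.404). Egr3 had 6.68, 7.73 and 5.01 and then 2.31, 2.2 and 2.53 normalized CPM (-1.46 ± 0.23, adjusted p = 0.17), the lowest adjusted p of the list. Sample #22 was lowest for 11 of the 14 genes. Fos and Egr1 were the 2 genes of the list with an SD of at least 1, and both were at least 2-fold lower in sample #22 than in any other library. Nr4a3, an immediate-early gene outside the list, was instead highest in sample #22, at 73.7 against 9.85 to 32.9 normalized CPM. Hspa1a and Hspa1b, heat shock genes counted in the same list, did not follow and overlapped between the sexes; they are near-identical, so their levels are uncertain.

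**Figure D5:**
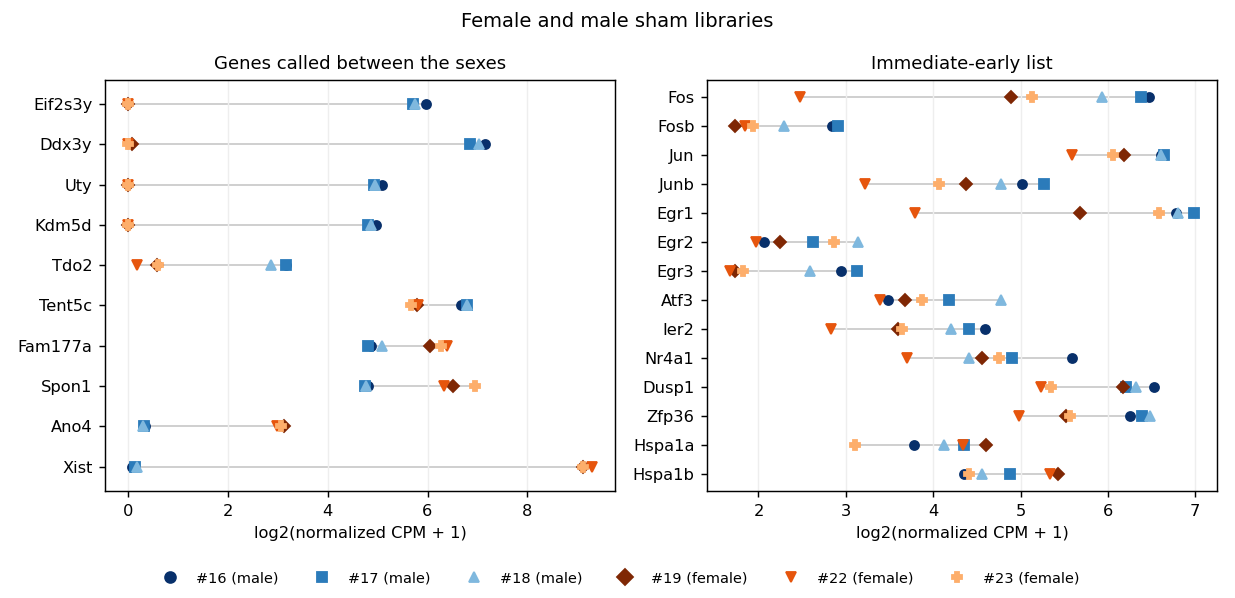
Log2(normalized CPM + 1) of the 10 genes called between female and male sham veins (left) and of the 14 immediate-early genes (right), one point for each of the 6 sham libraries, male in blue and female in orange. The sexes are separate for all genes on the left, and for 9 of the 14 on the right, with sample #22 lowest for Fos (4.58 normalized CPM).

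The summed clock list of 15 genes spanned 1.27-fold, while the median SD of its members was 0.36 against 0.23 over all tested genes. Dbp, a clock output gene, ranged from 30 normalized CPM in sample #16 to 72.7 normalized CPM in sample #17, and Bmal1, which is expressed in the opposite phase, from 4.14 normalized CPM to 12.7 normalized CPM with its highest value in sample #16. The interferon response list of 12 genes spanned 1.42-fold. Of the cell cycle genes, Mki67, a marker of dividing cells, lay between 26.2 and 43.8 normalized CPM and Top2a between 10.7 and 27.5 normalized CPM. Of the acute-phase genes, Saa3 was at most 3.13 normalized CPM and Lcn2 lay between 2.32 and 8.26 normalized CPM, while Hp, which encodes haptoglobin, had 226, 127 and 122 normalized CPM in the male samples and 70.8, 83.8 and 113 normalized CPM in the female samples. The cytokine gene Il6 was at most 0.606 normalized CPM, and C3, complement component 3, lay between 1120 and 1920 normalized CPM.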

How the data were processed

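The authors trimmed the reads with Trimmomatic 0.39, aligned them with STAR 2.7.7a and estimated counts per gene with RSEM 1.3.3, on GRCm39 with Ensembl 106 genes, according to the labels and the submitters' processing notes. The values deposited are expected counts for 55414 gene identifiers, which were rounded here; 54742 were named from GENCODE M39. Columns of 6 other samples were not used. Each sham library is 1 mouse, so the p-values measure the spread between mice. Sex was tested with edgeR 4.0.16 (quasi-likelihood, TMM normalization, more than 1 CPM in at least 2 libraries, Benjamini-Hochberg adjusted p under 0.05 and at least 1.5-fold), in R 4.3.3. The SD over libraries was taken on log2(normalized CPM + 1). Correlations of summed lists used exact permutation. Promoters came from RefSeq, matched by symbol. Alternatives covered normalization, filters, DESeq2 1.42.0, a replicate block and leaving out libraries. Genes were named if among the 25 highest, 25 most variable, 5 leading a library, called, or in a list. Neb and the pseudogenes were named after their values were seen. Members and lists were chosen with earlier results of these data known. The labels give no sequencing batch. Some items are not reported here, and members of lists not named are given as counts and ranges.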

Additional observations from a re-analysis of the deposited data

Results flagged for a closer look

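In 6 of 36 lists and 32 of 150 named genes or entries, 1 library stood apart from the other 5 by Dixon's test at the 95% level, which chance alone flags in about 1 of 20 groups, and many of these genes belong to the same list. Genes named for leading a library or for their SD were chosen for such a pattern, so that rate does not apply to them. Levels are in normalized CPM, with the range of the other 5 libraries after "against".

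In sample #19 the cardiac muscle list stood at 1280 against 64.4 to 116, with Myh6 at 431, Myl7 at 113, Nppa at 45.3, Myl4 at 143, Sln at 11.5, Nkx2-5 at 0.441, Ryr2 at 93.2 and Des at 133. The pancreas list stood at 0.331 in the same sample against 0.0493 to 0.0898, near the floor of 3 counts.

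In sample #23 the skeletal muscle list stood at 2400 against 14.9 to 64.1, with Myh4 at 628, Acta1 at 257, Atp2a1 at 391, Pvalb at 106, Myl1 at 175, Tnnt3 at 295, Xirp2 at 148, Ckm at 115 and Neb at 115. Il6 stood at 0.606 against 0.0493 to 0.224.

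In sample #16 the platelet list stood at 273 against 72.4 to 115, with Ppbp at 122, Tubb1 at 19.7, Clec1b at 25.3 and Alox12 at 31. The mitochondrial pseudogene Atp6-ps stood at 18800 against 9130 to 12700.

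In sample #22 the mesothelium list stood at 45.6 against 2.04 to 6.06, with Upk3b at 11.1 and Muc16 at 10.7, and the kidney list at 2.65 against 0 to 0.936. Nr4a3 stood at 73.7, Slc39a8 at 15.6, and Nrp2 was low, at 151 against 204 to 220.

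In sample #17 Cish stood at 18.1 and Myh2 at 1.67, and in sample #18 Gm45837 stood at 34.2 and Adnp at 24.4.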

How the results depend on the processing

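The 10 genes called between the sexes became 247 with DESeq2 (120 higher in female, 127 in male mice) and 32 with no filter on low counts (10 and 22). Leaving out 1 library gave 6 to 14 genes, with 6 without sample #17 or sample #18, and leaving out samples #19 and #23 together, an alternative chosen after seeing the data, gave 6 with 1 female library left and the spread taken from the male libraries alone, which is no check on the calls. Of 284 tested list genes outside the sex chromosome lists, none was called in the main test, 11 with DESeq2, 1 (Zfp36) with no filter and 1 (Egr1) without samples #19 and #23. Deviations from the sex means had r = 0.244, -0.057 and 0.278 between the same-numbered male and female samples. Between differently numbered samples r lay between -0.37 and 0.258. With so few libraries these values cannot decide whether the numbers pair the mice. With the replicate block 10 genes were called, and Spon1, Fam177a, Tdo2 and Tent5c were not among them. Counts under the other alternatives lay between 10 and 15. The count of genes with an SD of at least 1 was 163, and 325 with a pseudocount of 0.25; it lay between 156 and 177 when 1 library was left out. Without the 2 libraries farthest from the median, the correlation of the brown adipocyte and smooth muscle lists turned from -0.54 to 0.97 and that of the sympathetic neuron and Schwann cell lists from 0.22 to -0.43; with 4 libraries neither passed. Of the 36 list shares, 22 moved by more than the spread between libraries on the scale per length and 10 without rRNA and mitochondrial genes. The cause of these changes was not tested. Genes near the floor of 3 counts rest on few reads.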
